A study of Sus scrofa with 102 samples.

Results

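Ribosomal, translation and mitochondrial respiratory genes were followed in the fat, liver and muscle of crossbred pigs. The genes were those in the study's lists of probes that differed between breed types whose symbols start like names of ribosomal proteins, translation factors or respiratory proteins, for example RPL, MRPS, NDUF, COQ or CYC. Of 43221 probes on the array, 32 probes with 24 symbols were taken in this way from the 2011 probes (1526 symbols) in those lists. 19 of the 32 probes were listed for 1 comparison of breed types, 7 for 2 and 6 for 3 or more. The members were chosen by measured values, the breed type ratios in fat, in liver and in fetal and 5-month-old muscle, which are given here as a description that supports nothing. The differences between tissues and ages, and between breed types in 12-day-old muscle, were not used for the choice and were tested.

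LWDL pigs were the female offspring of LWD (Landrace, Large White and Duroc crossbred) females and a Landrace boar, and LWDM pigs those of LWD females and a Meishan boar. A single boar sired each breed type, so a difference between breed types is also one between a pair of boars. In liver and in longissimus dorsi muscle, the LWDL groups held 6 fetuses of 85 days, 5 sucklings of 12 days and 8 fattening pigs of 5 months, and the LWDM groups held 6, 6 and 7. Subcutaneous fat was taken from the same numbers of sucklings and fattening pigs but not from fetuses, which gives 102 arrays in all. All animals had an LWD mother, and there was no untreated group. Each array compared the Cy3-labelled RNA of 1 animal with Cy5-labelled RNA of a liver pool from LWD sows. Every level below is the log2 ratio of sample over this liver control, so 0 is the level of the control and the same level does not mean the same amount for different probes.

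Cytosolic ribosomes, built of RPL and RPS proteins and ribosomal RNA, translate nuclear-coded messages, and elongation factors such as EEF1A2 bring aminoacyl-tRNA to them. Mitochondrial ribosomes, with MRPL and MRPS proteins coded in the nucleus, translate the few respiratory subunits coded in mitochondrial DNA. In the respiratory chain, complex I (NDUF proteins) and complex III (which holds UQCRC2) pass electrons over coenzyme Q, made with COQ4 and COQ7, and cytochrome c, coded by CYCS, carries them on to complex IV. Skeletal muscle is known as a tissue rich in mitochondria, and EEF1A2 is known as the isoform of elongation factor 1 alpha of adult muscle and nerve.

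Some matches need a caution. RPS6KL1 (a kinase-like protein), EEF2K (the kinase that inhibits elongation factor 2) and EIF2C3 (AGO3, an Argonaute protein of small RNA pathways) share a prefix with the families only. NDUFAF4P1 is the human symbol in the lists, while the pig gene of its identifier is NDUFAF4, an assembly factor of complex I, and probe 12537 of RPS15A matches a pig locus annotated as a pseudogene. The probes listed as NDUFC2-KCTD14, EEF1A2, UQCRC2 and RPL37A match pig genes that carry only a locus name in RefSeq, so these names rest on the human symbols of the lists. A RefSeq gene was matched to 24 of the 32 probes.

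Some arrays stood apart from their labels. The 12-day-old muscle array of LWDL replicate 2 correlated with its group at 0.186 over the probes, and the fetal liver array of LWDL replicate 2 at 0.228, against 0.619 to 0.988 for the other arrays. In the first, the mean level of 14 skeletal muscle marker genes was 0.20 against a group median of 6.33, and that of 10 hepatocyte genes was −0.48 against −4.22. Both lay within the range of the 12-day-old LWDL liver arrays, at 0.11 to 0.61 and −1.02 to −0.15. In the second, 5 erythroid genes were at −0.78 against a median of 2.75. By 35 other probes that separated LWDL from LWDM in both fat and liver of 12 days, 8 of the 11 arrays of 12-day-old muscle fell with the breed type they were not labelled as (LWDL 2 to 5 and LWDM 3 to 6). The mean score of LWDL replicate 2, the array with few muscle transcripts, was near 0 (0.039), so its side says little. One label field of the 15 fat arrays of 5 months names liver, but their hepatocyte genes were at −5.47 to −4.83 and their adipocyte genes at 3.37 to 3.93. The study's list for fat follows a grouping in which 11 arrays labelled 5-month-old stand for 12-day-old fat. The arrays labelled 12-day-old and the remaining ones labelled 5-month-old stand for 5-month-old fat there. By the labels, the fat array that correlated best with a liver array of its age and breed type had the same number in 24 of 26 pairs. Fat results named below are also given under the study's grouping, called the other grouping, where it mattered to them. By the labels each slide held 1 tissue and 1 age, so age or tissue and slide are joined, and for the ages they cannot be told apart. At 5 months each slide also held a single breed type, so breed type and slide cannot be told apart at that age. Per the file headers, the fat arrays of 5 months were scanned on another day than the liver and muscle arrays of that age.

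**Figure D1:**
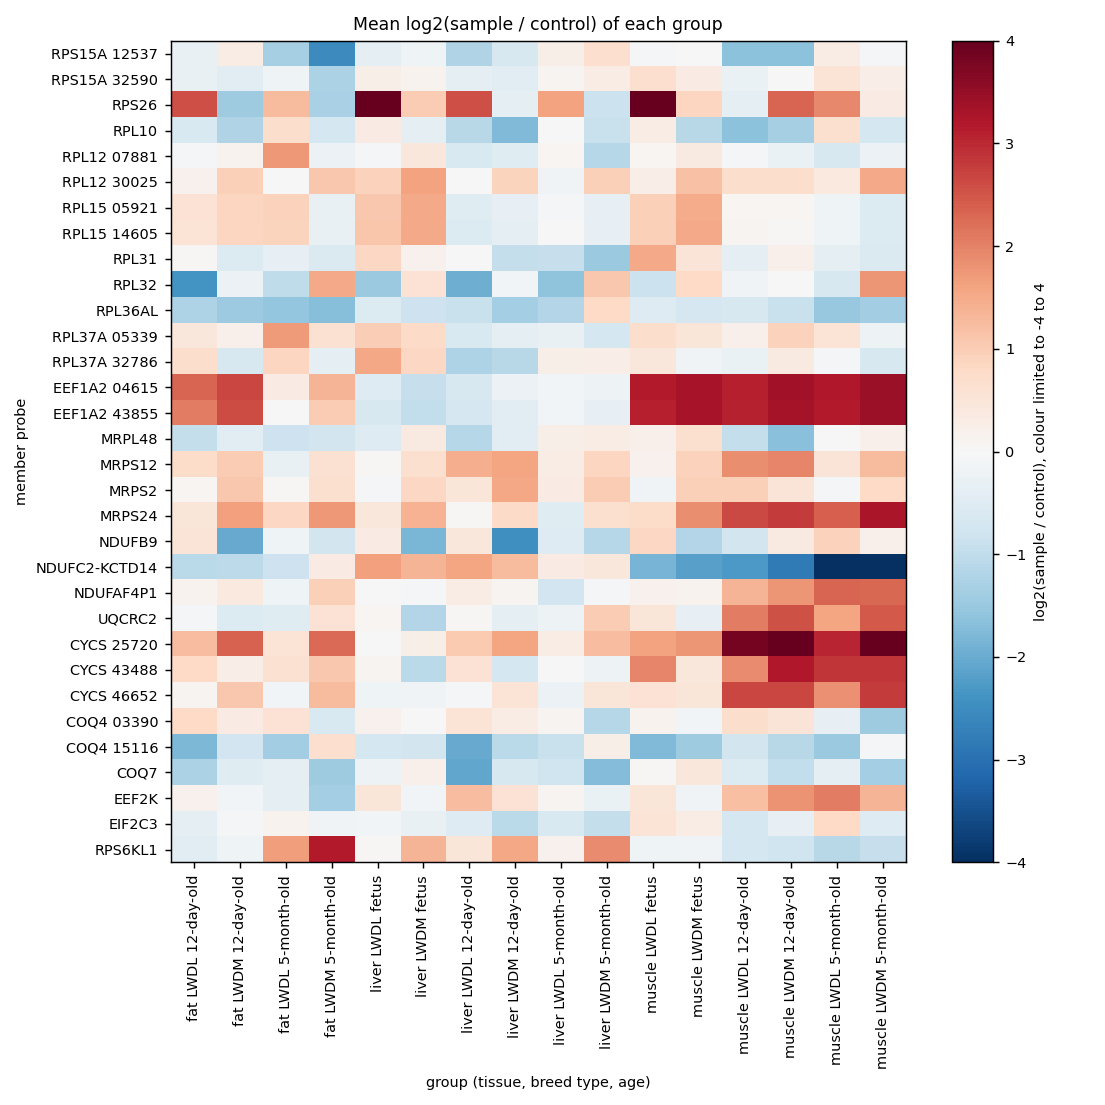
Mean log2 ratio to the liver control of each of the 32 probes (rows) in the 16 groups (columns), in colours limited to −4 to 4. Reading along a row, the EEF1A2 and CYCS probes were higher in the groups of postnatal muscle than in any group of liver or fat, and NDUFC2-KCTD14 was lowest in muscle.

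Between tissues after birth, more of the called member probes were higher than lower in muscle. They include 3 probes of CYCS, 2 of EEF1A2 and EEF2K, which matches by prefix only. A probe was called where it differed by over 2-fold with an adjusted p under 0.05 in limma over all tested probes, and it was tested where all arrays of a group compared had it well above background. In 5-month-old pigs, 12 of 27 members tested were called between muscle and liver, 10 higher and 2 lower in muscle, against 21.4% higher and 22.2% lower among all tested probes. Between muscle and fat at that age, 14 of 26 were called, 12 higher and 2 lower, against 16.6% and 19.2%. The 2 lower in both were NDUFC2-KCTD14 and RPS6KL1, for which no muscle array was above background, so that they entered through the brighter tissue and their size is known only as a bound. In 12-day-old pigs, 9 were higher and 1 lower of 24 in muscle against liver (17.0% and 19.0% of all probes), and 9 were higher and 2 lower of 26 in muscle against fat (11.8% and 14.3%). The 2 lower than fat were NDUFC2-KCTD14 and RPS15A probe 12537, with 1 and 0 of the 11 muscle arrays above background, and for the latter the measured difference was past 2-fold but the bound was not. Neither was called after normexp and loess. In fetuses, muscle against liver gave 4 higher and 1 lower of 26, against 17.5% and 17.1%, and a share of 4 in 26 is near that of all probes.

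Fat and liver were compared next, by the labels. At 12 days 4 were higher and 1 lower in fat of 26 tested (16.2% and 14.6% of all probes), and at 5 months 4 were higher and 2 lower of 27 (18.8% and 17.3%). At 12 days 12 of 27 were called with the other grouping of fat arrays, 9 higher and 3 lower, against 25.4% and 17.9% of all probes under it, so the total called was near the share of all probes. The median difference over the tested members was 0.81 between muscle and fat and 0.56 between muscle and liver at 5 months, beside 0.00 and 0.01 over all tested probes. After normexp and loess these medians were 0.38 and 0.40, and with no filter on dim probes they were 0.37 and 0.48. RPS26, RPL36AL, probe 07881 of RPL12 and probe 32786 of RPL37A entered no tissue or age test by the labels because of their low signal. In tissue pieces, fewer cells of a type and less RNA per cell cannot be told apart. Skeletal muscle marker genes were also present in fat, with group medians of 4.36 (LWDL) and 5.13 (LWDM) at 12 days and of 1.36 and 2.85 at 5 months, and array values from 0.75 to 5.62. The 6 adipocyte genes were at 0.79 to 1.81 in 5-month-old muscle, against 3.37 to 3.93 in fat. The part of either in the differences between muscle and fat was not tested.

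**Figure D2:**
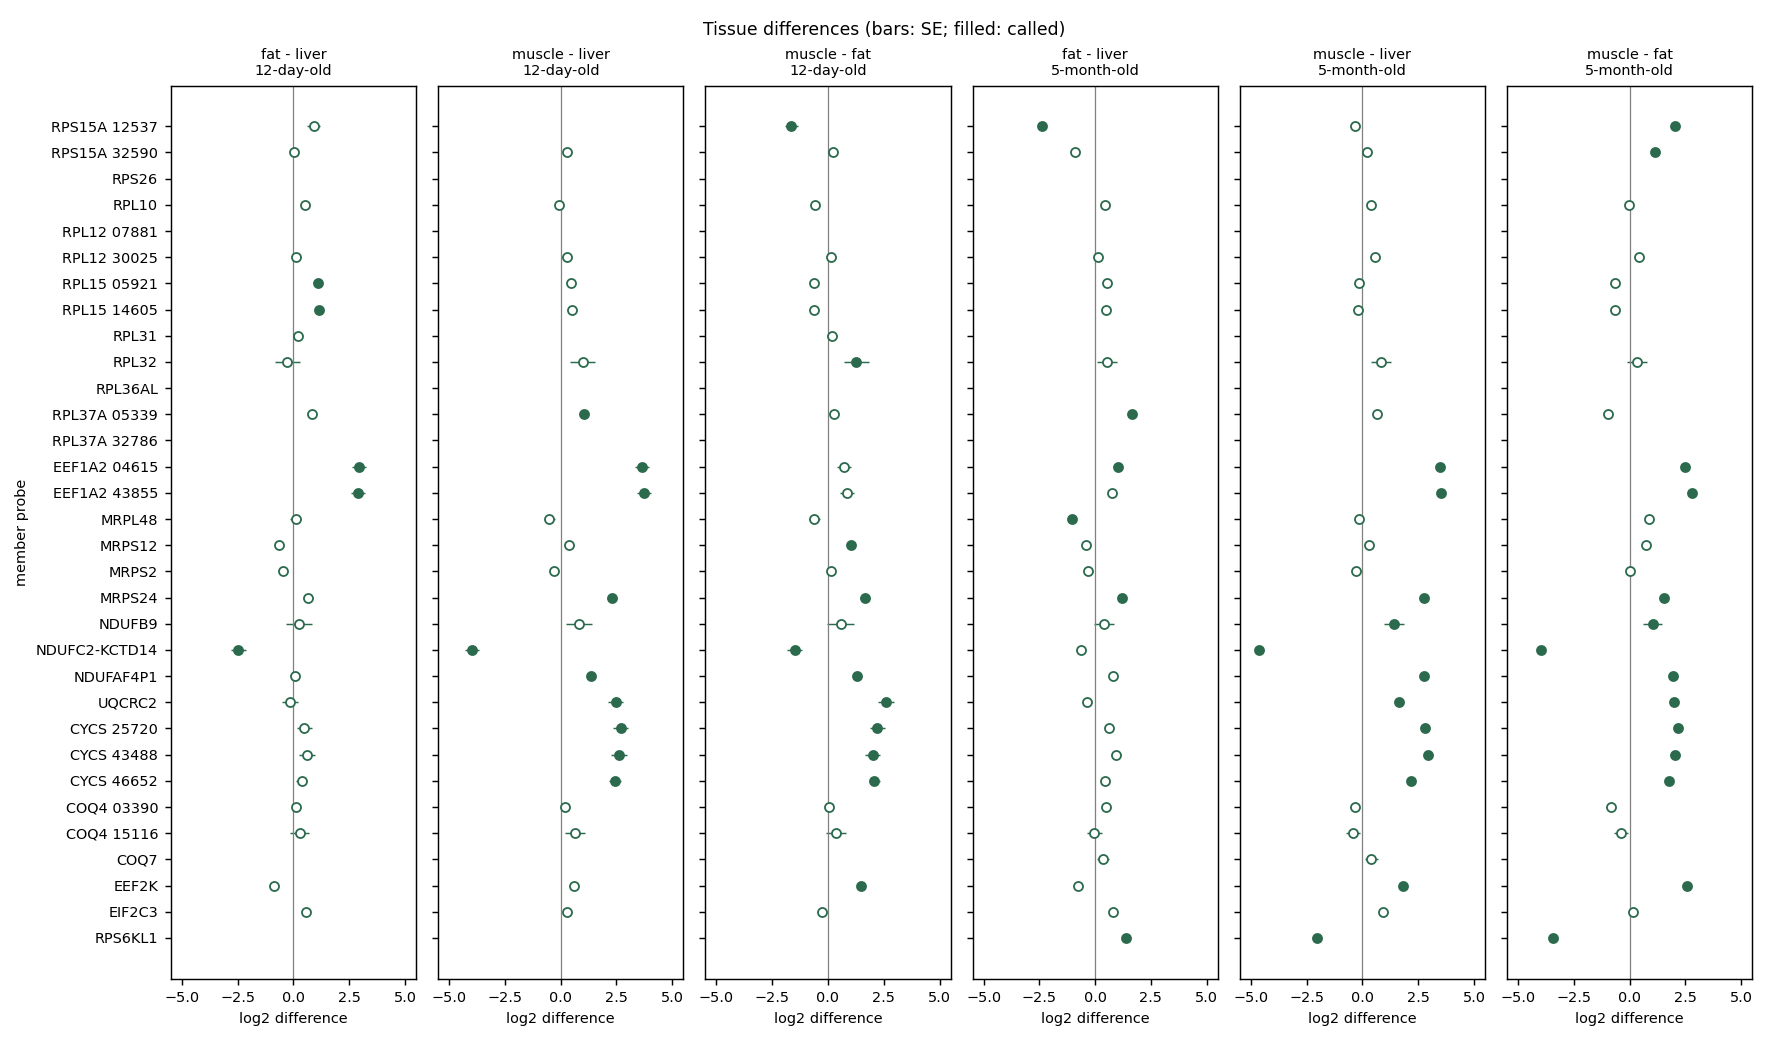
Differences in log2 ratio between tissues at 12 days and 5 months for the tested members (dots, with bars of 1 SE), filled where the difference was called; where only a bound exists the dot is the measured difference. EEF1A2, CYCS, UQCRC2, MRPS24 and NDUFAF4P1 lie to the side of muscle at 5 months, and NDUFC2-KCTD14 lies far to the side of liver and fat.

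EEF1A2, the muscle and nerve form of elongation factor 1 alpha, was far higher in muscle than in liver at every age. By probe 43855, its level in 5-month-old muscle was 2.92 at the lowest, 3.22 in the median and 3.38 at the highest in LWDL, and 3.21, 3.44 and 3.63 in LWDM. In liver of that age it was −0.39, −0.14 and 0.34 in LWDL and −0.94, −0.25 and 0.15 in LWDM, so no muscle array overlapped a liver array. The difference was 3.53 ± 0.15 (SE, n = 15 per tissue, adjusted p = 8.52e-25 in limma), or 11.5-fold. In fetuses it was 4.01 ± 0.11 (n = 12 per tissue, adjusted p = 2.91e-20 in limma), and probe 04615 gave 3.96 ± 0.13.

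In 12-day-old muscle, the 5 LWDL arrays gave EEF1A2 levels of 4.50, 0.09, 3.98, 3.52 and 3.34 by probe 43855, the low value being that of the array with few muscle transcripts. The difference from liver was 3.75 ± 0.32 with that array and 4.13 ± 0.18 without it. EEF1A2 was also higher in fat than in liver at 12 days, by 2.89 ± 0.32 (probe 43855) and 2.92 ± 0.31 (probe 04615). Under the other grouping of fat arrays these differences were 1.04 ± 0.33 and 1.27 ± 0.32, still past 2-fold. The 5 LWDL arrays of 12-day-old fat were at 2.88, 2.03, 2.24, 1.89 and 1.27, and those of liver at −1.06, −0.41, −0.55, −0.84 and −0.51, without overlap. By 5 months its level in fat was lower than at 12 days by both probes, with differences of −1.83 ± 0.23 and −1.65 ± 0.21 (adjusted p = 9.48e-08 and 1.25e-07 in limma). The skeletal muscle marker genes in fat were also lower at 5 months, as given above. Under the other grouping of fat arrays both EEF1A2 differences turned round, to 1.36 and 1.18.

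CYCS, the gene of cytochrome c, was measured by 3 probes, and all were higher in muscle than in liver and fat after birth. By probe 25720, the level in 5-month-old muscle was 2.57, 3.11 and 3.49 (lowest, median, highest) in LWDL and 3.64, 4.17 and 4.27 in LWDM. The liver of the same groups gave −0.25, 0.25 and 0.85, and 0.88, 1.33 and 1.64. Muscle thus lay above liver on every array, by 2.79 ± 0.16 (adjusted p = 5.75e-20 in limma). Probes 43488 and 46652 gave 2.96 ± 0.21 and 2.20 ± 0.18. Against fat of 5 months the differences were 2.15, 2.03 and 1.75 in the order 25720, 43488 and 46652. In fetuses, muscle was above liver by 1.58 ± 0.14 and 1.67 ± 0.09 by probes 25720 and 43488, while probe 46652 gave 0.68 ± 0.15, which is under 2-fold.

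The level of CYCS in muscle rose between the fetus and 12 days, by 2.32 ± 0.30 (probe 25720, adjusted p = 1.72e-08 in limma), 1.34 ± 0.32 (probe 43488) and 2.16 ± 0.24 (probe 46652). Fetal muscle was at 1.33 to 1.95 in LWDL and 0.93 to 2.59 in LWDM by probe 25720. The 5 LWDL arrays of 12-day-old muscle were at 4.07, 0.72, 4.50, 5.17 and 4.68, of which the array with few muscle transcripts alone was below the fetal range. Without it the rise by probe 25720 was 2.71 ± 0.17. In liver, probe 25720 rose by 1.20 ± 0.12 over the same interval, and in 5-month-old muscle and liver no CYCS probe was called against 12 days.

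The complex III subunit UQCRC2 and the complex I assembly factor listed as NDUFAF4P1 moved in the same direction in muscle. UQCRC2 rose by 2.23 ± 0.22 from fetal to 12-day-old muscle (adjusted p = 6.02e-11 in limma), or 2.45 ± 0.18 without LWDL replicate 2. Its fetal muscle levels were −0.00 to 0.92 in LWDL and −0.69 to 0.43 in LWDM, and at 12 days they were 2.03, 0.27, 3.20, 3.12 and 1.66 in LWDL and 1.82 to 2.95 in LWDM. NDUFAF4P1 rose by 1.41 ± 0.14 in the same comparison, from 0.02 to 0.38 in LWDL fetuses and −0.07 to 0.39 in LWDM fetuses. At 12 days it was at 1.77, −0.18, 1.61, 1.80 and 1.84 in LWDL and 1.67 to 2.10 in LWDM, all above the fetal range except the array named above.

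UQCRC2 was higher in 12-day-old muscle than in fat by 2.60 ± 0.35 and than in liver by 2.46 ± 0.35. At 5 months both genes stayed higher in muscle than elsewhere. UQCRC2 was higher in muscle than in fat by 1.98 ± 0.09 and than in liver by 1.62 ± 0.09. NDUFAF4P1 was higher than in liver by 2.74 ± 0.11 (adjusted p = 1.42e-26 in limma) and than in fat by 1.94 ± 0.11. Its 5-month-old muscle arrays lay between 1.98 and 2.56 in both breed types and its liver arrays between −1.27 and 0.44.

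The probe listed as NDUFC2-KCTD14, after a human read-through of the complex I subunit gene NDUFC2, went the other way. In liver its levels were 0.39 to 2.18 in LWDL fetuses and 0.91 to 1.86 in LWDM fetuses, and in fetal muscle they were −2.48 to −1.43 and −2.93 to −1.78. The difference in fetuses was −3.50 ± 0.21 (adjusted p = 1.70e-13 in limma), with 6 of the 12 muscle arrays well above background. At 5 months none of the 15 muscle arrays was well above background and all 15 liver arrays were. Muscle was then at least 2.48-fold lower than liver (means −4.24 and 0.38, adjusted p = 3.11e-25 in limma) and at least 1.94-fold lower than fat (adjusted p = 1.08e-22). With the other grouping 13 of 15 fat arrays were above background, at a mean of −1.01, and muscle against fat was not tested. Such a bound sets the dim arrays at their lowest signal well above background, and the p beside it is that of the measured values, which include signals at background.

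In 12-day-old muscle, 1 of 11 arrays measured NDUFC2-KCTD14 above background, LWDL replicate 2 at 0.25. The measured difference from liver was −3.98 ± 0.33, but without that array every muscle array was at background, so its size is not known. The difference from fat of −1.50 ± 0.33 came to −2.43 ± 0.34 under the other grouping of fat arrays, and to −0.12 after another background correction (normexp and loess), when it was not called. Fat lay below liver at that age as well, with a difference of −2.48 ± 0.33, or −1.54 ± 0.34 under the other grouping. In liver the difference from 12 days to 5 months was −1.03 ± 0.16, a value close to the 2-fold limit, and −0.97 without the 12-day-old liver array of LWDL replicate 4.

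Of the mitochondrial ribosomal proteins, MRPS24 of the small subunit was higher in muscle than in liver at 12 days (2.31 ± 0.22) and 5 months (2.75 ± 0.09, adjusted p = 8.89e-29 in limma). Its 5-month-old levels were 1.93, 2.30 and 2.94 in LWDL muscle and 3.15, 3.25 and 3.48 in LWDM muscle, against −0.89, −0.46 and −0.15 in LWDL liver and 0.50, 0.59 and 0.86 in LWDM liver. Every muscle array was above every liver array, and within each tissue LWDM lay above LWDL. MRPS24 was also higher in muscle than in fat, by 1.67 ± 0.22 at 12 days and 1.55 ± 0.09 at 5 months, was higher in fat than in liver at 5 months by 1.20 ± 0.09, and rose in muscle by 1.41 ± 0.20 from the fetus to 12 days.

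MRPS12, another protein of the small subunit, rose from the fetus to 12 days in liver (1.16 ± 0.12) and in muscle (1.35 ± 0.17). It then fell in muscle to 5 months by 1.02 ± 0.16 on the log2 scale (adjusted p = 1.16e-06 in limma). That fall was 1.21 ± 0.12 without LWDL replicate 2 and came to less than 2-fold when any of 6 other arrays was left out (LWDL 3, 4 and 5, LWDM 2, 4 and 5), the smallest being 0.92. MRPL48 of the large subunit fell in muscle from the fetus to 12 days by 1.74 ± 0.23 and rose again to 5 months by 1.40 ± 0.22. Its fetal muscle arrays were all well above background, at −0.02 to 0.40 in LWDL and 0.45 to 0.83 in LWDM. At 12 days 3 of 11 were, and the 5 LWDL arrays gave −1.37, 0.77, −0.95, −1.49 and −1.67. Without LWDL replicate 2 both differences were larger, at −1.95 and 1.61. After normexp and loess they were −0.47 and 0.32 and not called. In liver MRPL48 rose from 12 days to 5 months by 1.05 ± 0.14 (0.99 without the 12-day-old array of LWDL replicate 5), and at 5 months the difference between fat and liver was −1.05 ± 0.13, or −0.87 ± 0.12 under the other grouping of fat arrays, which is not past 2-fold. MRPS2 was called in no tissue or age comparison.

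COQ4 and COQ7, of coenzyme Q synthesis, were called in no comparison of tissues by the labels. COQ4 was read by 2 probes that moved in opposite directions over the arrays. Probe 03390 fell in muscle from 12 days to 5 months by 1.48 ± 0.20 (adjusted p = 3.24e-08 in limma), while probe 15116 rose in liver over that interval by 1.23 ± 0.38 (adjusted p = 0.00411). At 5 months probe 03390 was low in LWDM replicates 1 to 3 of every tissue, at −1.32, −1.61 and −1.46 in fat, −2.04, −1.91 and −1.92 in liver and −2.28, −2.35 and −2.34 in muscle. The other LWDM pigs of that age were at −0.10 to 0.15, −0.58 to −0.50 and −1.08 to −0.54. COQ7 fell in muscle from the fetus to 12 days by a measured 1.02 ± 0.32 (adjusted p = 0.00441 in limma). At 12 days 2 of 11 arrays were well above background, so the size and the p rest on signals near background. After normexp and loess this fall was not called.

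Of the cytosolic ribosomal proteins, RPL15 of the large subunit was higher in fetuses than at 12 days by both of its probes. In fetal liver, probe 14605 gave 0.30, 1.24 and 1.33 (lowest, median, highest) in LWDL and 1.11, 1.63 and 1.70 in LWDM. The 5 LWDL livers of 12 days were at −0.57, −0.41, −0.81, −0.47 and −0.39 and the LWDM livers at −0.65 to −0.08, all below every fetal liver. The fall was 1.75 ± 0.10 (adjusted p = 3.03e-17 in limma), or 1.83 ± 0.08 without the fetal array that stood apart. Over that interval in liver, medians of the 5 erythroid genes went from 2.75 (LWDL) and 2.68 (LWDM) to 1.07 and 0.75. Those of the 10 hepatocyte genes went from −1.98 and −2.03 to −0.49 and −0.12. The part of such cells in the changes of members in liver was not tested. In muscle RPL15 fell by 1.14 ± 0.13 over the same interval, and by 0.82 after normexp and loess, which is not past 2-fold. In 12-day-old fat it was higher than in liver by 1.14 ± 0.16, or by 0.67 under the other grouping of fat arrays, when it was not called.

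RPL10, also of the large subunit, fell from the fetus to 12 days by 1.40 ± 0.11 in liver and 1.08 ± 0.17 in muscle, and rose in muscle by 1.45 ± 0.16 to 5 months. The fall in muscle was not called after normexp and loess. Its levels in 12-day-old muscle were −0.59, −1.16, −2.77, −1.81 and −1.89 in LWDL and −1.73 to −1.02 in LWDM. At 5 months LWDL muscle was at 0.28 to 0.83 and LWDM muscle at −0.99 to −0.21, without overlap between the breed types. RPL37A (probe 05339) fell in liver from the fetus to 12 days by 1.36 ± 0.11 (adjusted p = 4.48e-13 in limma). It was higher in fat than in liver at 5 months by 1.65 ± 0.07 (adjusted p = 7.98e-25), or by 1.10 ± 0.13 under the other grouping of fat arrays.

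RPS15A probe 12537, the probe that matches a pseudogene locus, was dim in many groups. It was higher at 5 months than at 12 days in liver by 1.36 ± 0.17 (1 of 11 arrays above background at 12 days). In muscle it was at least 1.16-fold higher at 5 months than at 12 days (adjusted p = 4.89e-12 in limma), a bound under 2-fold, since none of the 11 arrays at 12 days was above background. The measured means were 0.12 and −1.64. In 5-month-old fat 1 of 15 arrays was above background, and the probe was lower than in liver by a measured 2.38 ± 0.16, which rests on fat signals not well above background, and lower than in 12-day-old fat by 1.93 ± 0.29. Under the other grouping of fat arrays the difference from liver was −0.84 ± 0.26 and not called. The age difference then turned round, with measured means of −0.39 at 5 months and −1.94 at 12 days, and was not tested because of low signal. After normexp and loess every one of these differences was under 2-fold, from 0.26 to 0.45 in size. RPS15A probe 32590, bright in every group, was called only between muscle and fat at 5 months, at 1.12 ± 0.09, where probe 12537 gave 2.04 ± 0.16, and under the other grouping neither was called (0.86 ± 0.10 and 0.50 ± 0.26). At 12 days, probe 12537 was at least 1.20-fold lower in muscle than in fat (means −1.64 and 0.02, adjusted p = 2.34e-05 in limma). With the arrays regrouped the fat mean was −1.94, below that of muscle, with 1 of 11 fat arrays above background.

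RPL32 varied widely among animals of a group. It was called higher in fat at 5 months than at 12 days, by 1.57 ± 0.51 (adjusted p = 0.00796 in limma), and higher in 12-day-old muscle than in fat by 1.27 ± 0.56 (adjusted p = 0.0476). The latter is a marginal call, which stood in 8 of 22 fits that each left out an array and turned to −0.27 ± 0.55 under the other grouping of fat arrays. Its 12-day-old LWDL fat arrays were at −2.22, −2.52, −2.60, −2.32 and −2.34, while LWDM replicates 2, 4 and 5 were at 1.28, 2.02 and 1.35 and the other three at −2.32 to −1.87. The fat difference between ages was lost with the methods' test with equal variances and was −1.14 under the other grouping of fat arrays.

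EEF2K and RPS6KL1, which match by prefix only, differed between tissues as well. EEF2K was higher in 5-month-old muscle than in fat by 2.58 ± 0.12 (adjusted p = 4.57e-23 in limma; 1.99 ± 0.16 under the other grouping of fat arrays) and than in liver by 1.80 ± 0.12, and rose in muscle by 1.34 ± 0.17 from the fetus to 12 days. RPS6KL1 was highest in 5-month-old fat, at 0.25 to 2.39 in LWDL and 2.31 to 3.86 in LWDM. None of the 15 muscle arrays of that age was above background, so muscle was at least 1.73-fold lower than fat (means −1.02 and 2.37, adjusted p = 3.02e-19) and at least 1.33-fold lower than liver (adjusted p = 4.49e-12), bounds that lie under 2-fold. With the arrays regrouped, 5 of the 15 fat arrays were above background and the fat mean was 0.33. Fat was above liver at 5 months by 1.39 ± 0.21, or −0.70 under the other grouping of fat arrays. Fat rose from 12 days, when 2 of 11 arrays were above background, with a measured difference of 2.74 ± 0.22 whose size rests on signals near background, but the other grouping of fat arrays gave −2.09. EIF2C3 was called in no comparison of tissues or ages.

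The grouping of the fat arrays changed other calls as well. Of 41 calls by the labels in comparisons of tissues or ages that involve fat, 25 were called in the same direction under the other grouping, 3 in the opposite direction (both EEF1A2 probes and RPS6KL1 between the ages of fat), 9 were not and 4 could not be tested, while 22 were called only there. Among the latter, EEF1A2 was higher in 12-day-old muscle than in fat by 2.39 ± 0.32 and 2.71 ± 0.33 (0.73 and 0.86 by the labels), and higher in 5-month-old fat than in liver by 2.07 ± 0.23 (probe 43855). In 12-day-old fat against liver, RPL37A (1.62 ± 0.12 by probe 05339 and 1.49 ± 0.34 by probe 32786), RPL10 (1.41 ± 0.16), COQ4 probe 15116 (1.54 ± 0.45), RPL32 (1.26 ± 0.55), CYCS probe 43488 (1.01 ± 0.36) and RPS6KL1 (1.41 ± 0.22) were then higher, and MRPS12 (−1.43 ± 0.19) and EEF2K (−1.61 ± 0.15) lower. Which members differed in fat at a given age therefore depended on the grouping. The shares over all tested probes moved too, in fat against liver at 12 days from 16.2% higher and 14.6% lower to 25.4% and 17.9%. Changed calls were not counted over all probes, so the counts above are not read as a result about the members.

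COQ4 showed this by both probes. With the arrays regrouped, 5-month-old fat was above liver by 1.05 ± 0.19 by probe 03390 and over 2-fold below it by probe 15116 (adjusted p = 0.00167 in limma), and muscle differed from fat by −1.40 ± 0.19 (probe 03390). Probe 15116 turned from 0.92 by the labels to −1.32 ± 0.31 between 12-day-old and 5-month-old fat. In 5-month-old muscle against fat, both RPL15 probes (−1.10 ± 0.11 and −1.09 ± 0.11) and RPL32 (1.48 ± 0.48) were then called, as were RPL10 (−1.47 ± 0.16) and RPS6KL1 (−3.18 ± 0.22) in 12-day-old muscle against fat. NDUFC2-KCTD14 was then lower in 5-month-old fat than in liver (−1.39 ± 0.19).

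**Figure D3:**
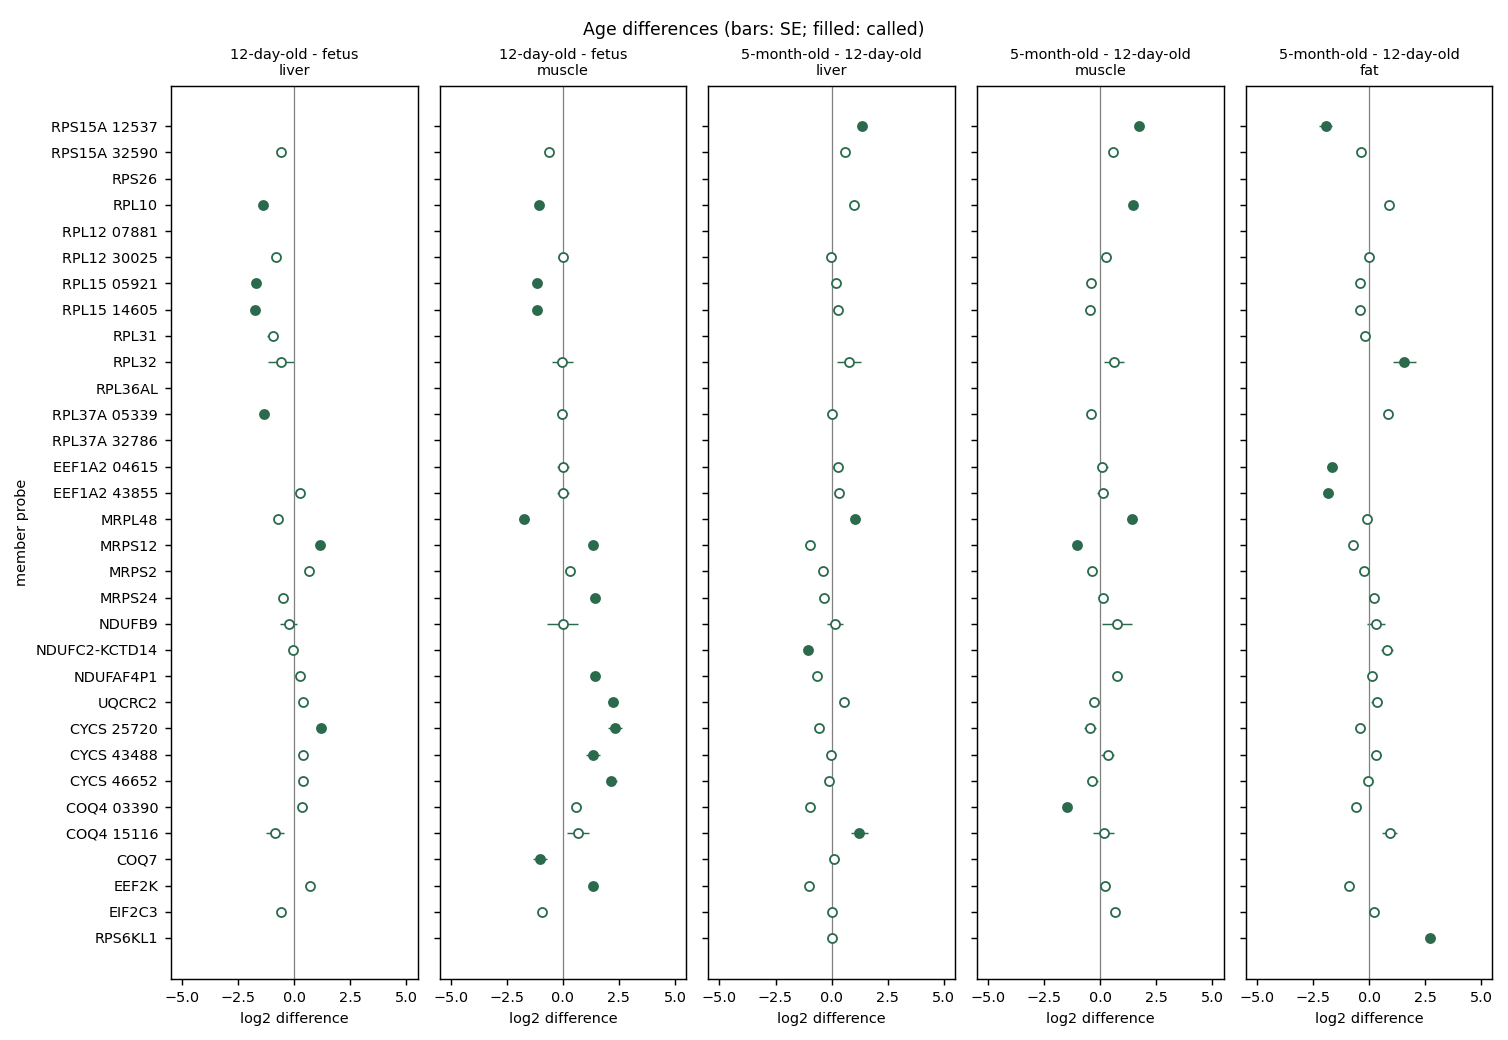
Differences in log2 ratio between successive ages in liver, muscle and fat for the tested members (dots, with bars of 1 SE), filled where the difference was called. In muscle between the fetus and 12 days, CYCS, UQCRC2, MRPS12, MRPS24, NDUFAF4P1 and EEF2K rose while RPL10, RPL15, MRPL48 and COQ7 fell.

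Over ages, muscle between the fetus and 12 days held the most calls. There 8 of 24 members rose and 5 fell, against 12.5% and 15.0% of all tested probes. The other age comparisons gave 2 higher and 4 lower of 24 in liver from the fetus to 12 days (10.5% and 11.9%), and 3 higher and 1 lower of 27 in liver from 12 days to 5 months (19.3% and 8.86%). In muscle from 12 days to 5 months 3 were higher and 2 lower of 24 (17.0% and 7.87%), and in fat 2 were higher and 3 lower of 27 (8.32% and 7.96%). Leaving out the fetal liver array that stood apart raised the count in liver from the fetus to 12 days to 8, with 2 higher and 6 lower. After normexp and loess the 8 rises in muscle from the fetus to 12 days stood beside no call of a fall, and over all probes the split moved from 3823 higher and 4578 lower to 3263 and 1881.

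Other genes of the same pathways, 40 genes in 5 lists taken from the same study lists, are given beside the members. They were thus drawn from probes that differed between breed types, and no list was tested against another. Between fetal and 12-day-old muscle, 5 of 5 tested genes of a list made for the citrate cycle and pyruvate rose, beside 12.5% higher and 15.0% lower among all tested probes. Not all of the 5 code for enzymes of these pathways. They were PDK4 (5.61 ± 0.33), a kinase that inhibits pyruvate dehydrogenase, FH (2.46 ± 0.46), fumarate hydratase, PDHA1 (2.06 ± 0.23) and PDHB (1.52 ± 0.10), subunits of pyruvate dehydrogenase, and D2HGDH (1.09 ± 0.24). Of the genes for iron-sulfur clusters, quinones and respiratory assembly, 6 of 7 rose, led by ISCA1 (2.34), LYRM7 (2.15) and GLRX5 (2.07). Of mitochondrial translation and gene expression 3 of 5 rose (MRRF 1.05, TEFM 1.04 and RNMTL1 1.02). The mitochondrial carriers SLC25A25 (2.66) and SLC25A23 (2.38) rose and GRPEL2 fell by 1.46 among 6 genes tested. None of the 4 tested genes of cytosolic translation and ribosome assembly was called. From 12 days to 5 months the difference of PDK4 in muscle was −6.92 ± 0.32.

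In liver from the fetus to 12 days, where 10.5% of all probes were higher and 11.9% lower, 6 of 9 genes of iron-sulfur clusters, quinones and assembly rose, among them FAM96A (2.11 ± 0.26) and DHODH (1.47 ± 0.30), while C1QBP (−1.06) and MTERF (−1.23) of mitochondrial gene expression fell. Erythroid marker genes fell and hepatocyte marker genes rose in liver over that interval, as given above for RPL15, and their part was not tested. From 12 days to 5 months, 5 of 9 genes of cytosolic translation rose, beside 19.3% of all probes, METAP2 by 2.03 ± 0.22, MKNK1 by 1.74 ± 0.11, and IARS, SECISBP2 and URB1 by 1.55, 1.51 and 1.25. At 5 months 5 of those 9 genes were lower in muscle than in liver, beside 22.2% of all probes, with MKNK1 at −2.48 ± 0.09 and IARS, an isoleucyl-tRNA synthetase, at −2.48 ± 0.18. In the same comparison 3 of 9 genes of the iron-sulfur list were higher in muscle (21.4% of all probes) and 5 lower.

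Between the breed types, 67 differences of the 32 members over the 7 comparisons behind the choice were past 2-fold. The choice of members fixed the counts that follow, so they describe the members and nothing is read from them. In 5-month-old fat by the labels, 11 members were over 2-fold higher in LWDM and 11 lower (5 and 3 under the other grouping of fat arrays). Called members were 17 of 25 tested there, beside 3.08% of all tested probes, and 2 of 26 in 12-day-old fat, beside 1.47%. Under the other grouping of fat arrays they were 20 of 27 (beside 2.21%) at 12 days and 4 of 23 (beside 0.723%) at 5 months. In liver they were 2 of 23 in fetuses (0.834%), 3 of 22 at 12 days (1.70%) and 6 of 27 at 5 months (2.19%), and 5 of 25 in fetuses (1.45%) without the array that stood apart. In muscle they were 4 of 23 in fetuses (1.51%) and 7 of 24 at 5 months (1.40%). Just inside the 2-fold limit of the lists were NDUFC2-KCTD14 (1.00) in fat of 12 days by the other grouping of fat arrays, that is, in arrays labelled 5-month-old, and CYCS probe 25720 (1.01) in 5-month-old muscle. Just outside it were CYCS probe 46652 (0.98) and COQ7 (−0.996) in 5-month-old muscle and RPL31 (−0.99) in fetal muscle, all as LWDM minus LWDL on the log2 scale. For COQ7 and RPL31 no LWDM array there was above background, so these values rest on signals at background.

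In 12-day-old muscle, the comparison not used for the choice, none of 21 members tested was called, beside 0% of 27937 probes. At an unadjusted p under 0.05, limma found 1 member and 793 probes, and the methods' test with equal variances gave 1 member and 833 probes at that level and no call after adjustment. The median difference over the members was 0.24, beside 0.02 over all tested probes, and was 0.036 without LWDL replicate 2 and 0.64 with the slide as a block. As given above, 8 of these 11 arrays fell with the other breed type by 35 probes and 1 of the 8 had few muscle transcripts. The part of either in the lack of calls was not tested. Without LWDL replicate 2, and with the slide as a block, the count was also 0. With the block, 5340 probes were at an unadjusted p under 0.05. A single slide held both breed types, with LWDL replicates 1 and 2 and LWDM replicates 5 and 6. The differences with the block therefore rest on those arrays, among them the array with few muscle transcripts, and nothing is read from them.

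RPS26, of the small cytosolic subunit, had the widest gap in level among the 32 probes. On 75 arrays it was at 1.84 or lower and on 27 at 4.54 or higher, with none between. Outside muscle, the high arrays of 12-day-old pigs were LWDL replicates 1, 3 and 5 in fat (5.27, 4.86 and 5.33) and in liver (4.96, 4.99 and 5.40), while replicates 2 and 4 were at −1.37 and −1.18 and at −1.94 and −0.57. At 5 months they were LWDL replicates 2, 5 and 6 in fat (4.58, 4.94 and 4.74), liver (4.54, 4.99 and 5.15) and muscle (5.32, 5.39 and 5.40). The same numbered pigs were thus high in fat and liver at 12 days and in each tissue at 5 months.

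In fetuses RPS26 was high in LWDL replicates 1, 3, 4 and 6 of liver (6.65, 6.67, 6.78 and 5.95) and in every LWDL muscle but replicate 5 (5.23 to 7.48 against 0.99). No LWDM array outside 12-day-old muscle was high, the range there being −2.08 to 1.84. In 12-day-old muscle the high arrays were LWDL replicate 1 (5.38) and LWDM replicates 3 and 5 (6.41 and 6.17), all on the LWDL side by the 35 probes above. Since LWDM was below background in most groups, RPS26 was at least 8.22-fold lower in LWDM in fetal muscle. The same bound was 3.61-fold in fat and 3.21-fold in liver at 12 days, and 1.83-fold and 2.05-fold at 5 months. Means and SDs over such groups mix high and low animals, as in LWDL liver of 5 months (1.61 ± 2.76, SD, n = 8).

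**Figure D4:**
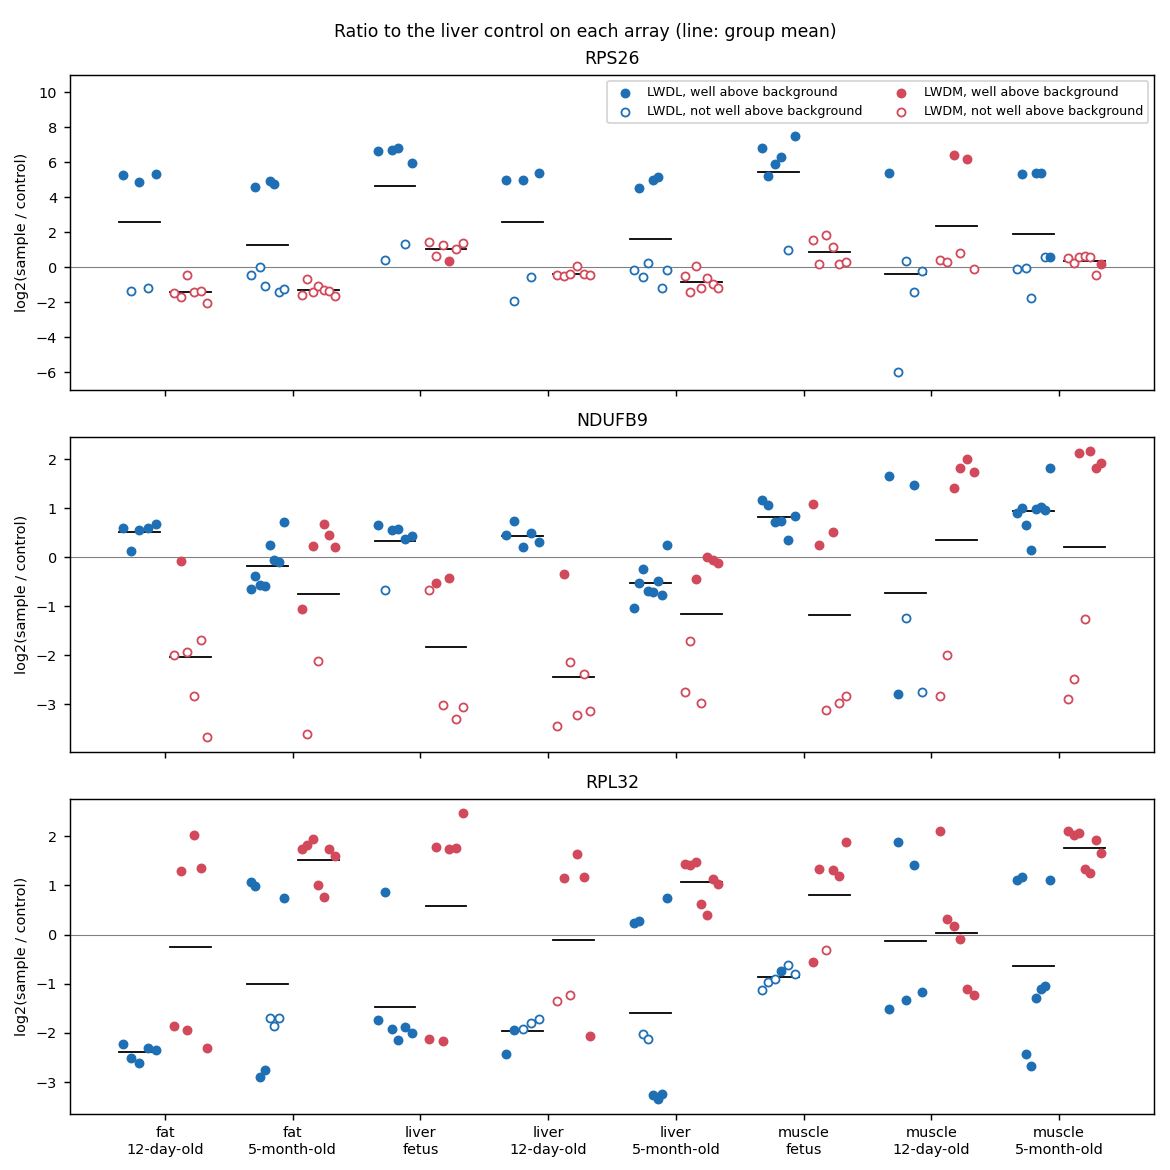
Log2 ratio of RPS26, NDUFB9 and RPL32 on each of the 102 arrays by group, with points filled where the probe was well above background. RPS26 has no array between 1.84 and 4.54, and within groups NDUFB9 and RPL32 also split into separate levels.

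NDUFB9, a subunit of complex I, showed the reverse distribution, with low values mostly in LWDM. Its widest gap lay between −1.68 and −1.25, with 27 arrays below and 75 above. In 12-day-old LWDL liver it was at 0.45, 0.73, 0.22, 0.50 and 0.31, and in LWDM liver at −3.44, −2.14, −3.20, −2.37 and −3.14 in all but replicate 2 (−0.34). In LWDM fetuses replicates 3, 5 and 6 were low in liver (−3.02, −3.29 and −3.05) and in muscle (−3.12, −2.98 and −2.82), and at 5 months replicates 1 and 2 were low in muscle (−2.89 and −2.49), replicate 4 lay at the upper edge of the gap (−1.25) and the others were at 1.81 to 2.17. NDUFB9 was called higher in 5-month-old muscle than in liver (1.40 ± 0.45, adjusted p = 0.00366 in limma) and than in fat (1.02 ± 0.45, adjusted p = 0.0317).

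RPL32, of the large cytosolic subunit, was positive in all 7 LWDM pigs of 5 months, at 0.76 to 1.94 in fat, 0.39 to 1.48 in liver and 1.25 to 2.11 in muscle. Of the LWDL pigs of 5 months, replicates 1, 2 and 8 were positive in each tissue (1.06, 0.98 and 0.75 in fat) and the other five were at −3.35 to −1.04. In fetuses, LWDM replicates 2, 4, 5 and 6 were positive in liver and in muscle.

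The state of the arrays was compared between tissues of animals with the same label and number. It was the side of the gap for RPS26, well above background or not for NDUFB9, and a ratio above 0 or not for RPL32. For RPS26 it was the same in 67 of 68 pairs of tissues, for NDUFB9 in 64 of 68 and for RPL32 in 67 of 68, where no 12-day-old muscle was involved. In pairs with 12-day-old muscle it was the same in 14, 8 and 10 of 22. Over the other probes well above background on all arrays, the array of the second tissue that correlated best with an animal was the one of its own number in 56 of 68 pairs and in 7 of 22 with 12-day-old muscle. These counts are a description, and the 3 genes were chosen after their values had been seen.

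Other members differed between the breed types without such steps. RPL10 in 5-month-old fat was at 0.59, 0.68 and 0.92 (lowest, median, highest) in LWDL and −0.96, −0.78 and −0.43 in LWDM by the labels. RPL12 probe 30025 was at 0.21, 0.35 and 0.71 in LWDL and 1.25, 1.49 and 1.86 in LWDM in 5-month-old muscle. RPL36AL was well above background in a single group, LWDM liver of 5 months (6 of 7 arrays, 0.79 ± 0.36, SD), against −1.16 ± 0.35 (n = 8) in LWDL, or at least 1.12-fold. In each of these cases the groups did not overlap. With the other grouping of fat arrays RPL10 differed by −1.47 at 12 days, without overlap, and by −0.97 at 5 months, where the groups overlapped.

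Among mitochondrial members, MRPS24 in fetal muscle was at 0.59, 0.75 and 0.92 in LWDL and 1.68, 1.89 and 2.03 in LWDM. MRPS2, also of the small mitochondrial subunit, was at 0.39, 0.57, 0.40, 0.64 and 0.46 in 12-day-old LWDL liver and at 1.32, 1.55 and 1.76 in LWDM. UQCRC2 in 5-month-old liver was at −0.36, −0.24 and 0.06 in LWDL and 0.50, 0.88 and 1.47 in LWDM. In fetal liver UQCRC2 was instead lower in LWDM, at −1.74, −1.09 and −0.67 against −0.72, 0.15 and 0.52, and the lowest LWDL array (replicate 4) overlapped with LWDM. CYCS probe 43488 was lower in LWDM in fetal muscle (0.13, 0.49 and 0.65 against 1.71, 1.92 and 2.18), whereas probe 25720 overlapped there.

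**Figure D5:**
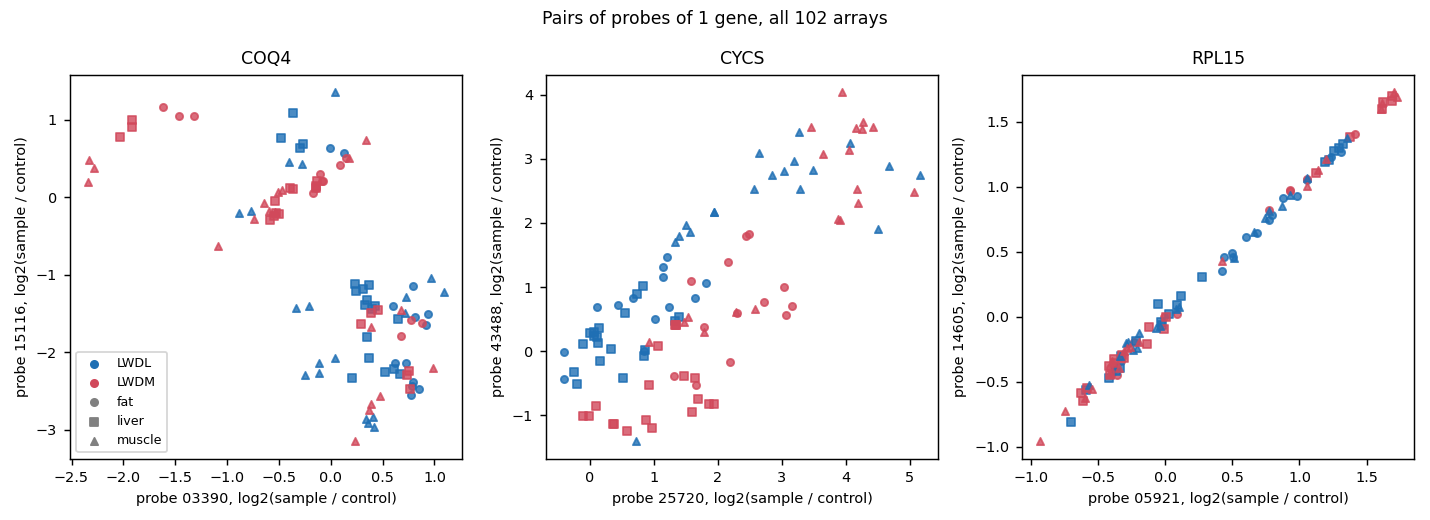
Log2 ratios of 2 probes of the same gene on all 102 arrays for COQ4, CYCS (probes 25720 and 43488) and RPL15. The RPL15 probes fall on a line (r = 1.00), the CYCS probes spread (r = 0.78), and the COQ4 probes run in opposite directions (r = −0.67).

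Probes of the same gene did not always move together, and 7 symbols had more than 1 probe. Over the 102 arrays, which share tissues and ages, the EEF1A2 probes correlated at r = 0.99 and the RPL15 probes at 1.00, with the same sign of the breed type difference in 7 of 7 comparisons each. CYCS probes 25720 and 46652 correlated at 0.96 (6 of 7 comparisons with the same sign), but 25720 and 43488 at 0.78 (1 of 7). For RPS15A r was 0.59 (3 of 7), for RPL37A 0.46 (6 of 7), for RPL12 −0.04 (5 of 7) and for COQ4 −0.67 (1 of 7). In 5-month-old LWDL fat, COQ4 probe 15116 was at −1.14 and −1.41 in replicates 1 and 2, at 0.58 and 0.64 in replicates 3 and 4 and at −2.54 to −2.38 in replicates 5 to 8. Probe 03390 in the same arrays was at 0.79 and 0.60, 0.12 and −0.01, and 0.77 to 0.85. The direction of a breed type difference in COQ4 or CYCS therefore depended on the probe read.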

How the data were processed

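Intensity values of each array were deposited as Agilent Feature Extraction 9.5 output, in which, per the file headers, the background was subtracted and the dyes normalized. The log10 ratios the authors deposited (Cy5 over Cy3) were converted to log2 and given the opposite sign, so that sample stands over control. The methods give Cy3 for the samples and Cy5 for the control and describe no dye swap. 43221 probes remained of 44638 spots after 1417 control spots. On the arrays, 65.7% to 81.3% of probes were well above background in Cy3, and 5.81% to 15.1% of ratios were exactly 0. Array number limits the precision.

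Tissues and ages were compared with limma 3.58.1 in R 4.3.3, with breed types weighted equally and Benjamini-Hochberg adjustment over all tested probes. A probe needed at least 3 values per group. Label numbers were taken to pair samples where the deviations from the group means of each same-numbered pair correlated over 0.1, which held for 12-day-old fat with liver and 5-month-old fat with muscle. Named with values were the 3 called members with the largest difference in each direction per comparison, members over 4-fold apart between breed types or listed for 3 or more comparisons, and genes whose probes were listed in opposite directions. Members, lists and probes were chosen with earlier results of these data known. The fits were tested on simulated data, where 200 of 200 probes shifted by 1.5 were recovered for muscle against liver at 5 months (33570 probes) and 121 of 200 for breed types in 12-day-old muscle (27937 probes). Alternatives were normexp (offset 50) with loess, centring, no filter, Student's test, slide and replicate blocks, left-out arrays and the other fat grouping. Some items of the study are not reported here.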

Additional observations from a re-analysis of the deposited data

Results flagged for a closer look

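For the 12 probes chosen by the rule for named genes, not for all 32, groups of 4 to 10 arrays were examined, and 17 values in 192 sets of a probe and a group lay apart from the rest of their group by Dixon's criterion, where chance alone gives about 1 in 20. 7 of them belonged to the fetal liver array of LWDL replicate 2, whose liver and erythroid marker genes also lay apart. They were CYCS probe 43488 (−0.52) and probe 46652 (0.51), NDUFB9 (−0.67), RPL10 (−0.46), RPL12 probe 07881 (−1.36) and probe 30025 (−0.14), and RPL32 (0.87). Another 3 belonged to the 12-day-old muscle array of LWDL replicate 2, which had few muscle transcripts, with COQ4 probe 15116 at 1.36, CYCS probe 25720 at 0.72 and CYCS probe 43488 at −1.41. The part of the array in these values was not tested beyond leaving it out.

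The other 7 were on arrays that did not otherwise stand apart. MRPS24 was low in 12-day-old LWDM fat replicate 6 (1.07 against 1.62 to 1.88) and in fetal LWDM liver replicate 4 (0.67 against 1.46 to 1.67). NDUFB9 was low in 12-day-old LWDL fat replicate 2 (0.13 against 0.57 to 0.68). RPL12 probe 07881 in fetal LWDM liver replicate 2 was at −0.019, with no array of that group above background. RPS26 was at 0.041 in 12-day-old LWDM liver replicate 4 and at −0.47 in 5-month-old LWDM muscle replicate 6, both below background. In fetal LWDL muscle, replicate 5 was at 0.99 for RPS26 while the other five were at 5.23 to 7.48.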

How the results depend on the processing

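Normexp with loess moved counts to 1 member called in fat against liver at 5 months, 1 in liver from 12 days to 5 months, 8 in muscle from the fetus to 12 days, 2 in muscle and 3 in fat from 12 days to 5 months, and 37 breed type differences past 2-fold in place of 67. Calls over all probes fell too in muscle from the fetus to 12 days, as given above. The lower counts are therefore not read as a result about the members. Under the study's grouping of fat arrays, fat against liver at 12 days gave 12 members (9 higher and 3 lower, with 25.4% and 17.9% of all probes), and, of the named values tested under it, 5 turned round: RPS6KL1 in fat against liver at 5 months (−0.70) and, from 12 days to 5 months in fat, EEF1A2 (1.36 and 1.18), RPS6KL1 (−2.09) and RPL32 (−1.14). Breed type counts in fat moved as given above. The cause was not tested. Of 57 named values, 33 were called under every alternative, and of their 907 recomputed values 869 kept their call, 33 lost it and 5 turned round. 20 of the 33 losses were with normexp and loess.

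Leaving out each 12-day-old array in turn gave 5 to 6 members in fat against liver, 10 to 11 in muscle against liver, 9 to 12 in muscle against fat, 6 to 7 and 3 to 6 in liver and 12 to 13 and 4 to 5 in muscle over successive ages, 5 to 6 in fat and 0 to 0 for breed types in 12-day-old muscle. Without the fetal liver array of LWDL replicate 2 the counts were 6 (muscle against liver) and 8 (12 days against fetus). With the label number as a replicate block the members called were 5 in fetuses, 5, 10 and 10 at 12 days (fat against liver, muscle against liver, muscle against fat) and 6, 12 and 14 at 5 months, and 0 for breed types in 12-day-old muscle. These numbers were taken to pair samples only for 12-day-old fat with liver and 5-month-old fat with muscle. For the other comparisons the block is no check on pairing. The main fits used no pairing. The block moved no count by over 1.5 times. Slide as a random block (correlations 0.238, 0.104 and 0.120 within ages) changed no count by more than 1. Centring turned the members in liver from 12 days to 5 months to 4 higher and 0 lower, and in muscle from the fetus to 12 days to 8 and 3. Muscle against fat at 5 months had a median member difference of 0.81, and of 0.38 with normexp and loess and 0.37 with no filter on dim probes. Dim probes limit the values: those at background have only bounds.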
